A study of Mus musculus with 15 samples.

Results

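The genes described here encode the heavy and light chains of mouse antibodies, measured by RNA-seq in kidney and lung. They were chosen by symbol (Ighv, Igkv and Iglv variable segments, Igh, Igk and Igl constant regions) and selected on their read counts, with at least 3 of 15 libraries at 10 or more. Of 56748 genes in the table, 379 matched the symbol pattern and 162 passed the count filter. The 162 were 151 variable (V) genes, made up of 76 Ighv, 73 Igkv and 2 Iglv genes, and 11 constant region genes. All animals were wild-type male C57Bl/6 mice, and each of the 5 groups had 3 libraries. Kidneys came from mice of 10 to 12 weeks that received vehicle (WTK) or 1 injection of folic acid (200 mg/kg). The folic acid mice then had either control IgG (IgGK) or a leptin-neutralizing antibody, LepAb (LepK), for 21 days, and kidneys were taken at day 28. Lungs came from mice of 12 weeks that received 1.5 units/kg of bleomycin into the trachea, and then either control IgG (IgGL) or LepAb (LepL) at 10 mg/kg for 14 days, with lungs taken at day 14. The lung replicates are described as mice. For the kidney replicates no source used here says so in words, and p-values there measure the spread between libraries. Lungs without bleomycin were not analysed here. The labels give IgG for IgGK and only vehicle for WTK. If WTK mice had no IgG, the effects of folic acid and of IgG cannot be told apart.

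An antibody is built from heavy chains and kappa or lambda light chains. Each chain carries 1 V segment and a constant region, and the heavy constant gene in use sets the class: Ighm for IgM, Ighd for IgD, the Ighg genes for the IgG subclasses and Igha for IgA. Plasma cells secrete antibody and carry very large amounts of this RNA, so a small number of them can dominate the signal in whole tissue. Jchain encodes the joining chain that links IgA and IgM units, and Pigr encodes the receptor that carries such polymers across epithelium. In bulk RNA, more cells of a type and more RNA per cell cannot be told apart.

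Libraries held 25913969 to 38924788 counts. The 162 genes took 0.217% to 0.578% of all counts in kidney and 0.0320% to 0.120% in lung. TMM scaling factors ran from 0.844 to 0.858 in WTK and from 1.14 to 1.18 in IgGK, so scaling bears on that comparison. Marker genes went with the organ labels: Slc34a1, a phosphate transporter of the proximal tubule, averaged 9465 normalized CPM in WTK and 0 in IgGL, whereas Sftpc, the surfactant protein of alveolar type 2 cells, averaged 5335 in IgGL and 0 in WTK. Among the IgGK kidneys, replicate 1 had the lowest level of 85 of the 102 immunoglobulin genes that averaged at least 1 normalized CPM in that group. By the same count, replicate 1 was lowest for 64 of 102 genes in WTK and for 31 of 91 in LepK.

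All 162 genes had a transcript in the GENCODE M21 set (GRCm38), matched by Ensembl identifier. The constant regions decide antibody class, so the first 60 bases of the Igha and Ighm reference transcripts are shown for the genes that led in kidney and in lung.
Igha: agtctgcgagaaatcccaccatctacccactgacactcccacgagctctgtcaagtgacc
Ighm: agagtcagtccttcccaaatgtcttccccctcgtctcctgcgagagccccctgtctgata
The 4 IgG genes are close relatives, and over their first 300 bases Ighg1 was 88% identical to Ighg2b, 87.67% to Ighg2c and 78.33% to Ighg3. Capitals mark the positions at which the 4 genes are not all the same.
Ighg1: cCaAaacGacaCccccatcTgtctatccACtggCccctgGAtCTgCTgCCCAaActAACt
Ighg2b: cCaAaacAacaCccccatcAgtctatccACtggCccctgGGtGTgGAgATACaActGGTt
Ighg2c: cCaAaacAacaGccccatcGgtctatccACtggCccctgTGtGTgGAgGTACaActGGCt
Ighg3: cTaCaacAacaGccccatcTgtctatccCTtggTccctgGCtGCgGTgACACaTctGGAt

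V genes are closer still. Over the last 250 bases of each V transcript, 111 of the 151 V genes were at least 90% identical to another V gene of the set and 60 were at least 95% identical. The lambda pair Iglv1 and Iglv2, whose values in LepK are set side by side below, differed at 4 of their last 120 bases, in capitals.
Iglv1: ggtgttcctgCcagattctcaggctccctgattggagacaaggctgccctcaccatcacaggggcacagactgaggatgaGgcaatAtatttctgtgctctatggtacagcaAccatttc
Iglv2: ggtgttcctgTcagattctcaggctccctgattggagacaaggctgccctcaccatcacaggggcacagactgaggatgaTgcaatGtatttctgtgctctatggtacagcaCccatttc
The kappa genes Igkv1-117 and Igkv1-110, among the most abundant V genes, also differed at 4 of 120 bases.
Igkv1-117: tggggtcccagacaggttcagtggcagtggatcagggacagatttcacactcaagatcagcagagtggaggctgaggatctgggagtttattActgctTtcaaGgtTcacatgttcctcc
Igkv1-110: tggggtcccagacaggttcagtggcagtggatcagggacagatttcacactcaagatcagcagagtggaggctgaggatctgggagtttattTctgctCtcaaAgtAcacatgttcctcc
Reads could therefore be shared between such genes by the counting, and the values of single V genes are uncertain to that extent. Joined V segments in B cells also carry somatic mutations that the reference lacks.

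Kidney and lung held different antibody classes (the plot of FPKM by library shows every value). Levels of different genes and organs were compared on the deposited FPKM, which correct for gene length. In kidney, Igha (12:113218450-113223856, GRCm39, minus strand) ran from 368 to 841 FPKM and Igkc, the kappa constant gene (6:70703419-70703950, plus strand), from 1137 to 2485 FPKM. In lung Igha ran from 7.30 to 13.7 FPKM and Igkc from 112 to 394 FPKM. Neither range overlapped between the organs. Ighm ran from 44.1 to 174 FPKM in lung and from 9.30 to 60.2 FPKM in kidney, and 3 of 6 lungs lay above all kidneys. Ighd, which mature naive B cells express together with Ighm, ran from 5.04 to 20.7 FPKM in lung and from 0.505 to 3.48 FPKM in kidney, with no overlap.

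**Figure D1:**
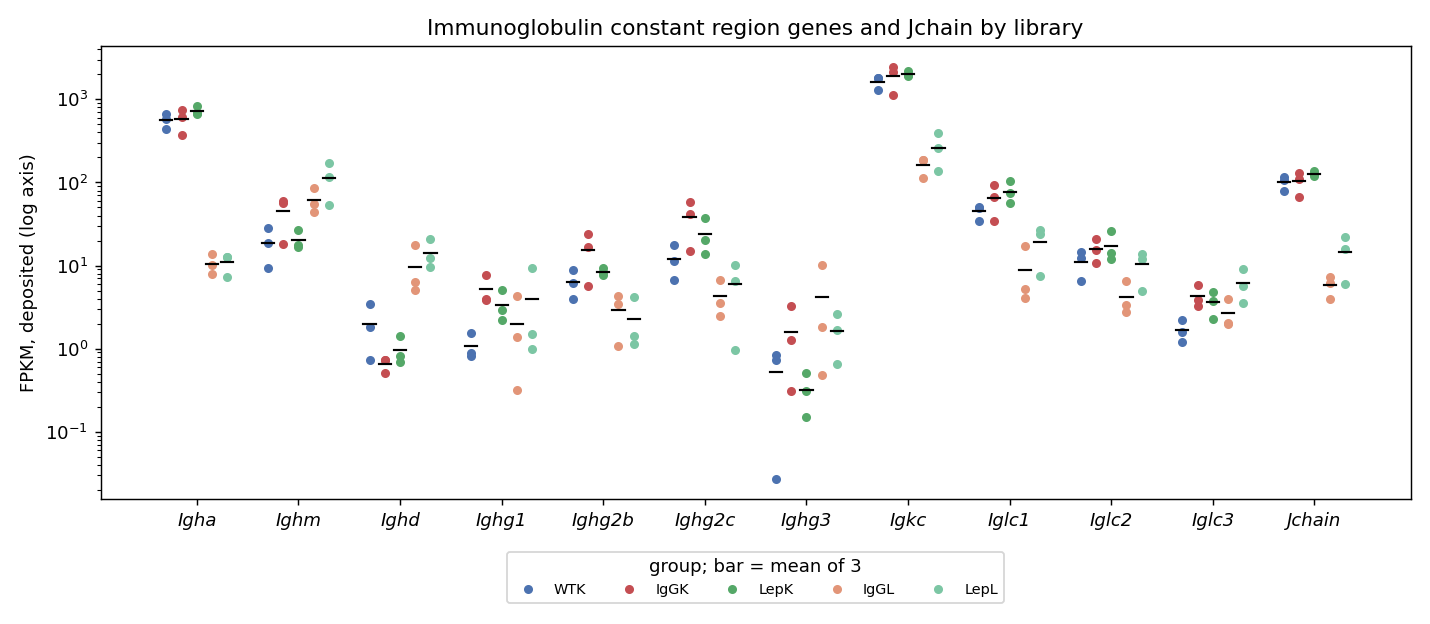
Deposited FPKM (log axis) of the 11 constant region genes and Jchain, with a point for each library and a bar for the mean of 3 libraries in each group. Igha and Jchain lie far higher in the 9 kidney libraries than in the 6 lung libraries, whereas Ighd lies higher in lung.

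As a share of the summed FPKM of the 7 heavy constant genes, Igha took 95.2%, 94.3% and 90.7% in the WTK kidneys. It took 89.4%, 84.3% and 82.2% in IgGK and 94.2%, 94.0% and 89.8% in LepK. The 3 IgGK shares all lay below the 3 WTK shares, and LepK overlapped WTK. In lung Igha took 5.42% to 14.2% and Ighm 57.3% to 76.2%. Igha led in vehicle kidneys as well as in injured ones. It ranked between 13 and 60 by count among all genes in every kidney library, and between 4552 and 7257 in lung. Because these shares sum to 100%, a rise in any other class lowers the share of Igha without a change in Igha itself.

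**Figure D2:**
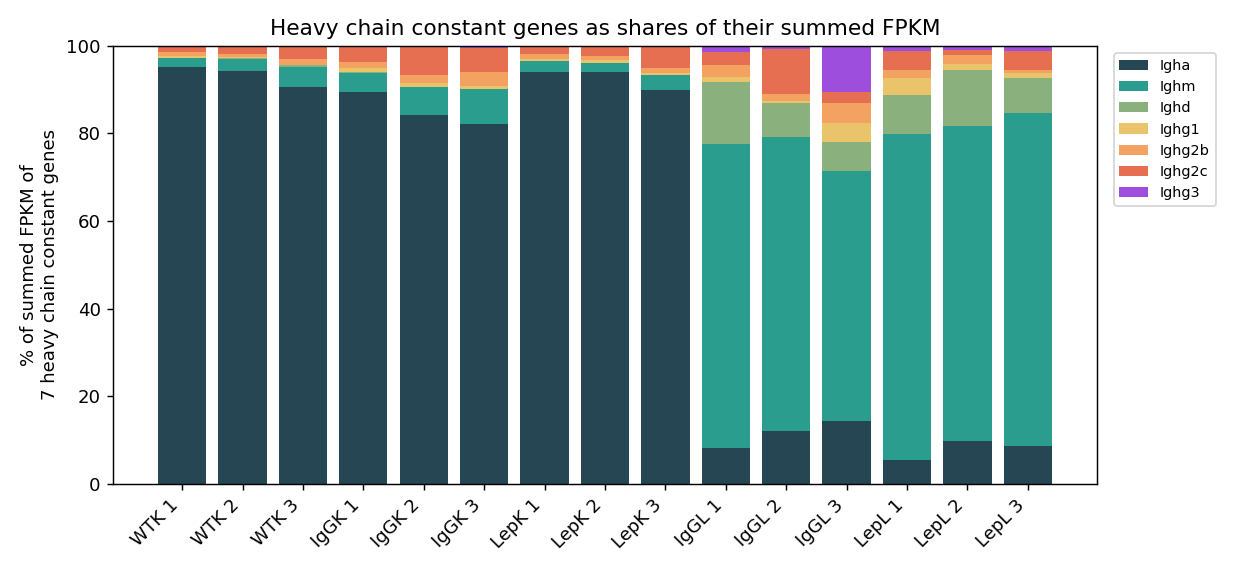
Percentage of the summed FPKM of 7 heavy chain constant genes taken by each gene, with a bar for each library. Igha fills 82.2% to 95.2% of the kidney bars and Ighm 57.3% to 76.2% of the lung bars.

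The remaining kidney heavy chain RNA was split between IgG and IgM. With Igha left out, the 4 IgG genes took 47.3% to 64.3% of heavy constant FPKM in kidney and 5.97% to 25.6% in lung. Lambda constant genes took 3.20% to 5.57% of light chain constant FPKM in kidney and 4.84% to 14.02% in lung. Jchain had 15.04 to 17.3 counts per 100 counts of Igha and Ighm in kidney, and 9.57 to 15.7 in lung. The ratio of Igkc FPKM to Igha FPKM was steady across the 9 kidneys, from 2.61 to 3.43.

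The first kidney comparison asked how immunoglobulin RNA differed between folic acid with IgG and vehicle. The main IgA and kappa genes did not pass the test, while 3 of 4 IgG genes, the IgM gene and 1 of 3 lambda constant genes were higher after folic acid and the IgD gene was lower. Igha stood at 1418, 2127 and 1882 normalized CPM in WTK and at 1215, 2500.2 and 2052 in IgGK, with a log2 fold change of 0.09 (SE 0.22, edgeR adjusted p = 0.757). Igkc stood at 829.6, 1148 and 1160.4 in WTK and at 748, 1641 and 1401 in IgGK (log2 fold change 0.27, SE 0.22, edgeR adjusted p = 0.323). The groups overlapped for both genes, with IgGK replicate 1 lowest of the 6. Without that library the Igkc difference passed the test, at a log2 fold change of 0.54 (edgeR adjusted p = 0.00648), and with library size scaling it passed at 0.72 (edgeR adjusted p = 0.0161).

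Ighg1, the IgG1 constant gene, changed most among the constant genes. It stood at 4.90, 2.57 and 2.78 normalized CPM in WTK and 12.4, 24.8 and 12.7 in IgGK, with no overlap (log2 fold change 2.29, SE 0.36, edgeR adjusted p = 0.000165). It kept that call without each library in turn. Ighg2c, the IgG2c gene of C57BL mice, stood at 10.6, 18.4 and 28.3 in WTK and at 24.8, 94.8 and 69.8 in IgGK (log2 fold change 1.72, SE 0.47, edgeR adjusted p = 0.008), and kept its call likewise. Both IgG genes rose, although for Ighg2c the lowest IgGK kidney lay below the highest WTK kidney.

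Ighg2b stood at 13.0, 20.02 and 28.7 in WTK and 18.7, 55.6 and 79.3 in IgGK (log2 fold change 1.32, SE 0.39, edgeR adjusted p = 0.0134). Ighm stood at 21.3, 42.9 and 63.7 in WTK and at 42.6, 132 and 141 in IgGK (log2 fold change 1.30, SE 0.42, edgeR adjusted p = 0.0186). For both genes IgGK replicates 2 and 3 were high and replicate 1 fell within the WTK range. The Ighg2b call was lost without WTK replicate 1 (1.07, edgeR adjusted p = 0.0622) or IgGK replicate 3 (0.85, edgeR adjusted p = 0.0808). The Ighm call was lost without WTK replicate 1 (0.98), WTK replicate 2 (1.30), IgGK replicate 2 (1.11) or IgGK replicate 3 (1.03), with edgeR adjusted p from 0.0532 to 0.0785. Ighg3 had a log2 fold change of 1.64 (SE 0.84, edgeR adjusted p = 0.122), which passed only without IgGK replicate 1 among the libraries left out (2.12, edgeR adjusted p = 0.038).

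Ighd fell by 1.57 on the log2 scale (SE 0.47, edgeR adjusted p = 0.0134), from 1.66, 4.19 and 7.97 normalized CPM in WTK to 1.19, 1.74 and 1.73 in IgGK. Its call was lost without WTK replicate 3 (-0.91, edgeR adjusted p = 0.111), the highest library. Of the lambda constant genes, Iglc3 rose from 0.665, 0.869 and 1.19 to 1.81, 3.32 and 2.14 (log2 fold change 1.41, SE 0.38, edgeR adjusted p = 0.00736), with no overlap. Iglc1 and Iglc2 had log2 fold changes of 0.56 (SE 0.30, edgeR adjusted p = 0.134) and 0.53 (SE 0.33, edgeR adjusted p = 0.202). Iglc1 passed without IgGK replicate 1 (0.86, edgeR adjusted p = 0.00903).

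**Figure D3:**
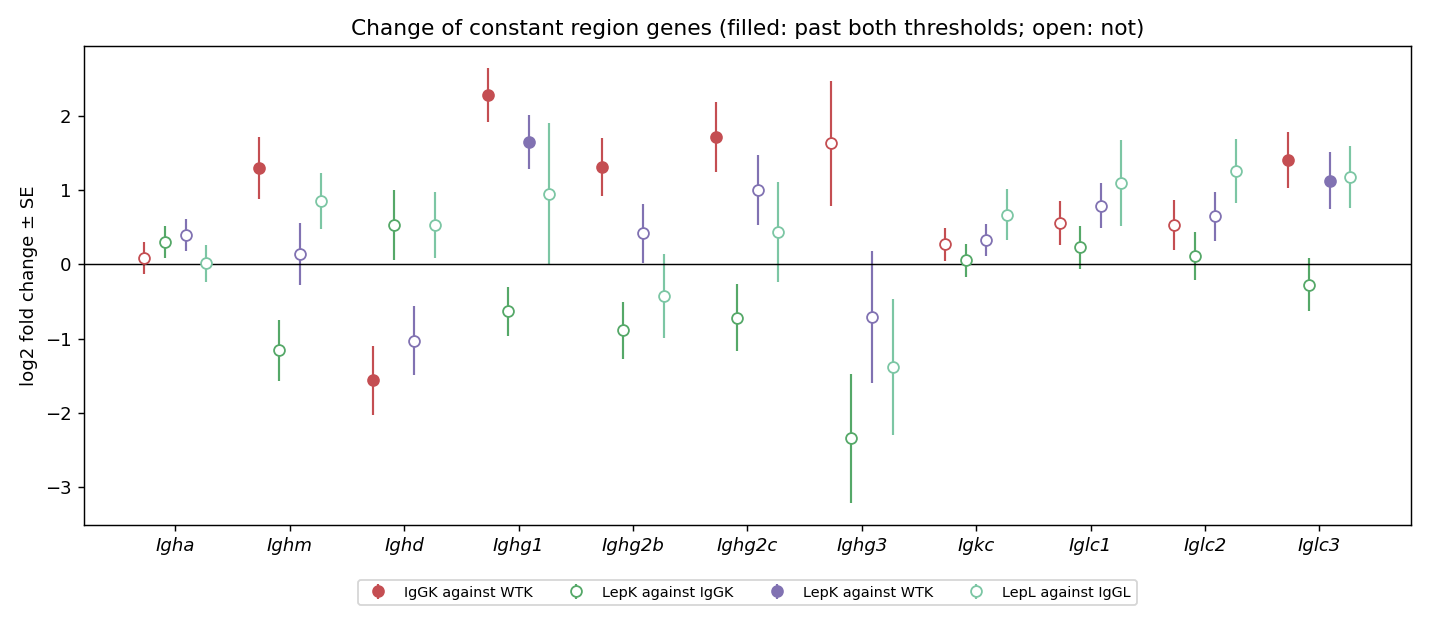
Log2 fold change with its standard error for the 11 constant region genes in 4 comparisons; filled points passed an absolute log2 fold change of 0.5 and an adjusted p of 0.05. Igha has open points close to 0 throughout, and the filled points of IgGK against WTK are Ighm, Ighg1, Ighg2b, Ighg2c and Iglc3 above 0 and Ighd below.

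Over all immunoglobulin genes, 156 of 162 could be tested in kidney, and 12 were higher and 12 lower in IgGK than in WTK. Among all genes tested the calls were 21.7% higher and 15.6% lower, 37.3% in all, against 15.4% of the immunoglobulin genes. Groups did not overlap for 19 of the 156 (62.6% of all genes), and 26 had an unadjusted p under 0.05 (58% of all genes). Their median log2 fold change was 0.04, as was that of all genes. With library size scaling, which moved the median of all genes to 0.48, the split was 27 higher and 4 lower. The calls did not fall evenly: 6 of 11 constant genes were called, 7 of 71 Ighv genes and 10 of 72 Igkv genes.

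Among V genes with no overlap and at least 1 normalized CPM, those that rose most were Igkv16-104, Igkv4-53 and Iglv1. Iglv1, the main lambda V gene, stood at 9.51, 14.4 and 15.04 in WTK and 15.8, 29.7 and 24.6 in IgGK (log2 fold change 0.85, SE 0.25, edgeR adjusted p = 0.012). Its call was lost without WTK replicate 1 (0.67, edgeR adjusted p = 0.0574) or IgGK replicate 2 (0.65, edgeR adjusted p = 0.0548). Igkv4-53 had a log2 fold change of 1.26 (SE 0.37, edgeR adjusted p = 0.0119) and kept it without each library. Igkv16-104 had 1.28 (SE 0.50, edgeR adjusted p = 0.0477) and lost the call without any of WTK replicates 1 and 3 or of the 3 IgGK replicates (0.87 to 1.43, edgeR adjusted p from 0.054 to 0.137).

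The V genes that fell most by the same rule were Igkv4-74, Igkv9-120 and Ighv1-26. Igkv9-120 fell from 5.65, 7.82 and 9.63 to 1.02, 4.54 and 2.25 normalized CPM (log2 fold change -1.55, SE 0.42, edgeR adjusted p = 0.00687). Igkv4-74 had a log2 fold change of -1.95 (SE 0.57, edgeR adjusted p = 0.012). Ighv1-26, the most abundant Ighv gene, fell from 5.40, 7.94 and 7.03 to 3.46, 4.52 and 4.62 (-0.69, SE 0.20, edgeR adjusted p = 0.00953). Each of these 3 kept its call without each library, but Ighv1-26 did not pass with library size scaling (-0.25, edgeR adjusted p = 0.305). Ighv3-4 had 10, 0 and 14 counts in WTK and none in IgGK, so the groups overlapped at 0. Against a floor of 3 counts over the IgGK group, the WTK level was 10.4-fold higher. The gene met the count filter with exactly 3 libraries, among them WTK replicates 1 and 3, where it was high. Its call was kept in 4 of 9 fits that left out 1 library (edgeR adjusted p up to 0.0824).

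**Figure D4:**
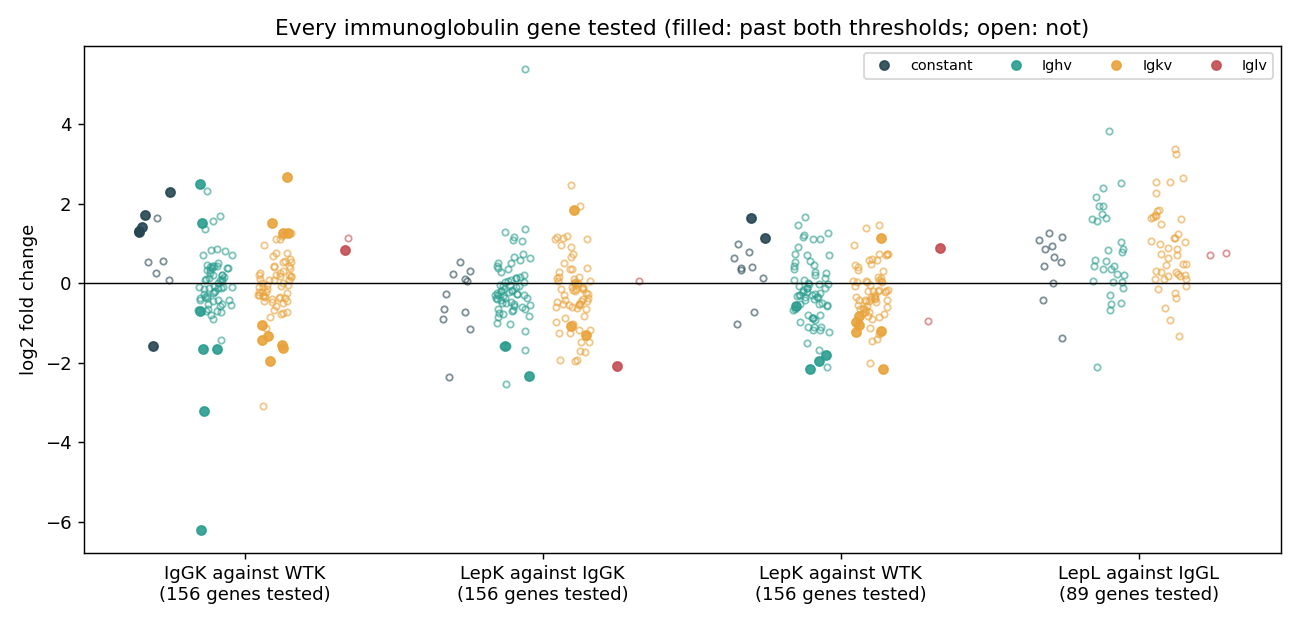
Log2 fold change of every immunoglobulin gene tested in 4 comparisons, by gene class; filled points passed both thresholds. The V genes spread to both sides of 0 in kidney, while in lung 74 of 89 genes lie above 0 with none filled; the lowest point is Ighv3-4, whose fitted value is not a bound because IgGK held no counts.

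The second kidney comparison asked how LepAb differed from IgG after folic acid. No constant gene passed the test. Igha stood at 2165, 2739.8 and 2234 normalized CPM in LepK (log2 fold change against IgGK 0.31, SE 0.22, edgeR adjusted p = 0.358). Ighm stood at 38.6, 40.9 and 62.0 in LepK, with a log2 fold change of -1.16 (SE 0.41, edgeR adjusted p = 0.0671). It passed without IgGK replicate 1 (-1.52, edgeR adjusted p = 0.00839) and without WTK replicate 1 (-1.16, edgeR adjusted p = 0.0482), and was not called without any of the other 7 libraries. The 4 IgG genes had log2 fold changes of -0.63 (Ighg1), -0.89 (Ighg2b), -0.72 (Ighg2c) and -2.35 (Ighg3), with edgeR adjusted p from 0.0787 to 0.302. Of these, Ighg2b passed without IgGK replicate 1 (-1.27, edgeR adjusted p = 0.00502), Ighg3 without IgGK replicate 1 (-2.82, edgeR adjusted p = 0.031) or WTK replicate 1 (-2.34, edgeR adjusted p = 0.0371), and Ighg1 without LepK replicate 2 (-1.03, edgeR adjusted p = 0.0436).

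Among all 156 genes tested, 1 was higher and 5 were lower in LepK than in IgGK, which is 3.85%, against 4.38% higher and 5.99% lower among all genes, 10.4% in all. Groups did not overlap for 17 (37.4% of all genes), and 20 had an unadjusted p under 0.05 (32.9% of all genes). The count was 16, all lower, without IgGK replicate 1, and 3 without IgGK replicate 2. Over all genes these fits gave 1958 and 1322 calls, against 2032 with every library. With library size scaling the split was 0 higher and 12 lower, and that scaling moved the median of all genes to -0.19. The 6 called genes were all V genes. Igkv8-21 stood at 2.70, 3.40 and 2.34 in IgGK and at 1.32, 0.805 and 1.33 in LepK (log2 fold change -1.29, SE 0.30, edgeR adjusted p = 0.00923), and Ighv1-5 at 1.06, 1.74 and 1.13 in IgGK and 0.165, 0.168 and 0.443 in LepK (-2.34, SE 0.55, edgeR adjusted p = 0.0104). Both kept their call without each library.

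Iglv2 fell from 1.62, 2.49 and 1.94 to 0.757, 0.603 and 0.0369 normalized CPM (log2 fold change -2.09, SE 0.59, edgeR adjusted p = 0.0258), and Iglv1 had a log2 fold change of 0.05 (edgeR adjusted p = 0.909). Whether the 2 genes differed was not tested. The Iglv2 call was lost without IgGK replicate 2 (-1.90, edgeR adjusted p = 0.0862) or IgGK replicate 3 (-2.11, edgeR adjusted p = 0.0581). Igkv5-39 had -1.08 (SE 0.30, edgeR adjusted p = 0.0254) and lost its call without IgGK replicates 2 or 3 or LepK replicates 2 or 3 (edgeR adjusted p from 0.0516 to 0.0932). Igkv2-109 was the gene that rose, from 0.198, 0.457 and 1.53 to 1.74, 3.86 and 2.36 (1.85, SE 0.57, edgeR adjusted p = 0.0393). Its call was lost in 7 of the 9 fits that left out 1 library, all but those without IgGK replicate 3 or LepK replicate 1 (0.0502 to 0.13). Ighv1-74 (-1.58, edgeR adjusted p = 0.0436) lost its call in all but the fit without IgGK replicate 1.

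LepK was also set against WTK, which shares its control kidneys with the first comparison. Here 4 of 156 genes were higher and 10 lower, 8.97% in all, against 15.2% higher and 7.3% lower among all genes, 22.5% in all. Groups did not overlap for 31 (50.2% of all genes), and 26 had an unadjusted p under 0.05 (46.8% of all genes). The library size scaling made the split 9 higher and 4 lower. Leaving out WTK replicate 2 or 3 or LepK replicate 3 gave 8 calls, and leaving out LepK replicate 2 gave 7. Over all genes those fits gave 3647 to 4265 calls, against 4415 with every library. Ighg1 stood at 7.04, 15.9 and 9.23 normalized CPM in LepK, above all WTK kidneys (log2 fold change 1.66, SE 0.36, edgeR adjusted p = 0.0033), and kept its call without each library. Iglc3 stood at 2.67, 2.08 and 1.26 (1.13, SE 0.38, edgeR adjusted p = 0.0334) and lost its call without WTK replicates 1 or 2 or LepK replicates 1 or 2 (edgeR adjusted p from 0.0742 to 0.118). Iglv1 stood at 19.2, 21.02 and 32.7 (0.90, SE 0.25, edgeR adjusted p = 0.0128) and lost its call without WTK replicate 1 (0.73, edgeR adjusted p = 0.0586) or LepK replicate 3 (0.63, edgeR adjusted p = 0.0706). Ighm, with 0.14 (SE 0.42, edgeR adjusted p = 0.821), and Igha, with 0.40 (SE 0.22, edgeR adjusted p = 0.171), did not pass, although the 3 LepK values of Igha lay above the 3 WTK values.

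The V genes that fell most in LepK against WTK were Igkv6-20, Igkv4-57-1 and Igkv3-2. Igkv6-20 fell from 1.50, 1.38 and 1.88 to 0.527, 0.369 and 0.148 normalized CPM (log2 fold change -2.16, SE 0.70, edgeR adjusted p = 0.0273). Igkv3-2 stood at 5.94, 8.49 and 11.8 in WTK and 3.46, 5.53 and 2.40 in LepK (-1.20, SE 0.42, edgeR adjusted p = 0.0368). Igkv4-57-1 had -1.22 (SE 0.44, edgeR adjusted p = 0.0449). Igkv6-20 lost its call without WTK replicates 1 or 3 or LepK replicates 2 or 3 (edgeR adjusted p from 0.0545 to 0.0988), and Igkv3-2 without WTK replicates 2 or 3 or LepK replicates 1 or 3 (0.0752 to 0.154). Igkv4-57-1 lost it without WTK replicates 2 or 3, IgGK replicate 3 or any LepK replicate (0.0566 to 0.138).

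The summed level of all 162 genes was 2553, 3759 and 3546 normalized CPM in WTK, 2293, 4924 and 4159 in IgGK, and 3815, 4607 and 4034 in LepK. The log2 ratio of means was 0.21 for IgGK against WTK, 0.13 for LepK against IgGK and 0.34 for LepK against WTK, with no test. The 3 LepK sums lay above the 3 WTK sums, and IgGK reached both below and above them. Without Igha and Igkc, the sums were 306, 484 and 503 in WTK, 329, 783 and 706 in IgGK, and 422, 443 and 507 in LepK.

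In lung, the comparison of LepAb with IgG after bleomycin gave higher values for most immunoglobulin genes, with no calls. Of 162 genes 89 could be tested. None was called with edgeR, against 1.78% higher and 2.36% lower among all genes (4.14% in all), and 18 had an unadjusted p under 0.05, which is 20.2% against 27.3% of all genes. Groups did not overlap for 8 of 89 (33.3% of all genes). DESeq2 called 7, all higher. The smallest edgeR adjusted p was 0.0571. The fold change was above 0 for 74 of 89, with a median log2 fold change of 0.70 against 0.00 for all genes. Without LepL replicate 1 the median was 0.21. Leaving out IgGL replicate 1 gave 13 calls among 108 tested, all higher, while calls over all genes went from 812 to 3539. Leaving out any other library gave none, with at most 22 calls over all genes.

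Ighm stood at 233, 122 and 155 normalized CPM in IgGL and at 467, 145 and 310 in LepL (log2 fold change 0.86, SE 0.38, edgeR adjusted p = 0.187). Igkc stood at 141, 86.9 and 147 in IgGL and at 298, 105 and 195 in LepL (0.67, SE 0.34, edgeR adjusted p = 0.236). LepL replicates 1 and 3 were high, and replicate 2 lay inside the IgGL range. Igha stood at 38.6, 30.7 and 54.4 in IgGL and at 48.1, 27.9 and 48.8 in LepL (0.01, SE 0.25, edgeR adjusted p = 0.98). The lambda genes Iglc2 (1.26, SE 0.43, edgeR adjusted p = 0.108) and Iglc3 (1.18, SE 0.42, edgeR adjusted p = 0.117) had the highest fold changes of the constant genes. Without IgGL replicate 1, Iglc1 (1.99, edgeR adjusted p = 0.0209), Iglc2 (1.71, edgeR adjusted p = 0.021), Iglc3 (1.57, edgeR adjusted p = 0.0306) and Ighd (1.27, edgeR adjusted p = 0.0167) passed.

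Single libraries carried much of the lung values. Of 162 genes, 51 had more than 50% of their summed lung CPM in 1 library. LepL replicate 1 was that library for 28 of them. Counts in the top library ran from 2 (Igkv4-90 and Igkv4-79) to 1135 (Ighg3), so some of these shares rest on very few counts. Among the 9 kidneys, 3 genes had such a library. A share of this size is easier to reach among fewer libraries, so the lung and kidney numbers are not directly comparable. Ighg3 was at 37.7 normalized CPM in IgGL replicate 3 and between 1.78 and 9.24 in the other 5 lungs. Ighg1 was at 34.5 in LepL replicate 1 and at 16.3 in the next highest lung. The summed level of all 162 genes was 583, 327 and 535 in IgGL and 1179, 382 and 767 in LepL (log2 ratio of means 0.69, and 0.25 without LepL replicate 1).

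Whether the LepAb effect differed between the organs was tested as an interaction over the 12 libraries of injured kidney and lung. Of 155 genes tested 4 passed, all with a lower effect in kidney, which is 2.58%, against 3.51% higher and 3.62% lower among all genes, 7.12% in all. An unadjusted p under 0.05 was found for 37 (25.4% of all genes). The 4 were Ighv1-50, Igkv8-21, Igkv4-72 and Igkv15-103. For Igkv15-103 the log2 fold change was -0.54 in kidney and 1.64 in lung, a difference of -2.15 (SE 0.60, edgeR adjusted p = 0.0477). For Igkv4-72 it was -0.53 in kidney and 3.39 in lung, where LepL replicates 1 and 3 stood at 6.17 and 6.42 normalized CPM and the other 4 lungs between 0.222 and 0.698. Leaving out 1 library at a time gave between 0 and 14 calls, with 0 without IgGK replicate 2 or 3, LepK replicate 1 or 3, or IgGL replicate 2. The other counts were 1 without LepK replicate 2 or LepL replicate 1, 2 without IgGL replicate 3 or LepL replicate 3, 4 without IgGK replicate 1, 7 without LepL replicate 2 and 14 without IgGL replicate 1. Over all genes, calls ran from 352 without IgGL replicate 2 to 3763 without IgGL replicate 1, against 1531 with all 12 libraries.

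Genes of B cells and plasma cells were read beside the immunoglobulin genes. Among all genes tested, 21.7% were called higher in IgGK than in WTK and 15.6% lower. Of 15 B cell surface and identity genes, 4 were higher and none lower, with a median log2 fold change of 0.11. These were Spib (log2 fold change 3.26), Cd37 (1.81), Cd22 (1.77) and Cd79b (0.86), and Cd37 and Spib are also used by other white blood cells. The B cell gene Ms4a1, which encodes CD20 (-0.04, edgeR adjusted p = 0.956), did not pass. The summed level of the 15 genes had a range of 22.9 to 35.2 normalized CPM in WTK, of 40.8 to 68.2 in IgGK and of 35.6 to 49.2 in LepK. It stood lowest in replicate 1 of each kidney group, as the summed immunoglobulin level did. Of 12 plasma cell genes, with a median log2 fold change of 0.31, Irf4, Sdc1 and Tnfrsf13b rose and Eaf2 fell. Jchain stood at 238, 354 and 324 in WTK and 211, 407 and 348 in IgGK (0.08, SE 0.20, edgeR adjusted p = 0.767), which within both groups is the same order of libraries as Igha.

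Other white blood cell genes moved further. All 9 T cell genes and all 7 macrophage genes rose in IgGK against WTK, with median log2 fold changes of 2.25 and 3.09. When LepK was set against IgGK, 6 of 7 macrophage genes and 1 of 9 T cell genes fell. Over all genes tested, 21.7% were called higher in the first comparison and 5.99% lower in the second. The summed macrophage genes had a range of 165 to 184 normalized CPM in WTK, 768 to 984 in IgGK and 357 to 482 in LepK. All 3 tested neutrophil genes also rose in IgGK against WTK and fell in LepK against IgGK. The part of these cells in the immunoglobulin values was not tested.

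In lung, none of the 15 B cell genes passed, with a median log2 fold change of 1.02. Among all genes tested there, 1.78% were called higher and 2.36% lower. The summed B cell genes were 261.1, 102 and 140 normalized CPM in IgGL and 421, 192 and 251 in LepL. In both groups replicate 1 was highest and replicate 2 lowest for these B cell genes, as for summed immunoglobulin. Chst4, a sulfotransferase of the high endothelial venules through which lymphocytes enter lymph nodes, rose from a mean of 5.54 to 15.01 (log2 fold change 1.44, SE 0.25, edgeR adjusted p = 0.0327), the only call among 5 tested genes of lymph node stroma and high endothelium. Summed T cell genes had a mean of 41.4 in IgGL and 71.3 in LepL, with no calls among 9 and replicate 1 highest in both groups. Summed macrophage genes had means of 1776 and 1102 (2 of 7 called lower) and neutrophil genes of 196 and 57.6 (3 of 4 tested called lower). The 5 lung epithelial genes had summed means of 17961 in IgGL and 37379 in LepL, with 1 called higher. The part of cell makeup in the lung values was not tested.

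Genes for the attraction, transport and binding of antibody were read in the same kidneys. Of 11 tested survival and attraction genes, 4 were called higher and 1 lower in IgGK against WTK. The shares over all genes tested were 21.7% higher and 15.6% lower. Ccl28, the chemokine that draws IgA plasma cells to epithelia, stood at 139, 187 and 129 normalized CPM in WTK and 21.1, 8.83 and 17.3 in IgGK (log2 fold change -3.27, SE 0.40, edgeR adjusted p = 2.03e-05). It stood at 41.1, 15.6 and 12.3 in LepK and did not pass against IgGK (0.56, SE 0.39, edgeR adjusted p = 0.362). Its level after folic acid lay far below all vehicle kidneys, while Igha did not pass the test in the same libraries. Fcamr, a receptor for IgA and IgM, fell from 53.6, 49.7 and 55.2 to 6.27, 4.86 and 6.85 (-3.14, SE 0.13, edgeR adjusted p = 1.13e-08) and rose to 13.7, 10.9 and 11.4 in LepK (1.0, SE 0.13, edgeR adjusted p = 0.000473). Pigr fell from 282, 308 and 346 to 183, 196 and 205 (-0.68, SE 0.09, edgeR adjusted p = 3e-05). Its difference between LepK and IgGK, 0.38 (SE 0.09, edgeR adjusted p = 0.00941), did not reach the fold-change threshold. In lung, where Pigr averaged 16.4 in IgGL, it was higher in LepL at 30.7 (0.91, SE 0.16, edgeR adjusted p = 0.0337).

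Activating receptors for the constant part of IgG moved the other way in kidney. Fcgr3, an activating IgG receptor of myeloid cells, rose from 5.57, 5.80 and 5.59 normalized CPM in WTK to 39.6, 49.7 and 40.4 in IgGK (log2 fold change 2.94, SE 0.20, edgeR adjusted p = 2.16e-07). It fell to 11.5, 17.6 and 22.7 in LepK (-1.33, SE 0.18, edgeR adjusted p = 0.000635). Fcgr1, Fcgr4 and their signalling partner Fcer1g did the same, with log2 fold changes of 2.91, 1.88 and 2.88 in IgGK against WTK and of -1.31, -1.0 and -0.83 in LepK against IgGK. The inhibitory receptor Fcgr2b was not called in kidney. Of the 10 tested Fc and immunoglobulin receptor genes, 5 rose and 2 fell in IgGK against WTK, and 1 rose and 4 fell in LepK against IgGK. Over all genes tested, 21.7% were called higher and 15.6% lower in the first comparison, and 4.38% and 5.99% in the second. Tnfsf13b, which encodes the B cell survival factor BAFF, rose from a mean of 2.67 to 17.98 and fell to 10.7 in LepK (-0.75, SE 0.17, edgeR adjusted p = 0.00847). In lung Fcgr1 (-1.28), Fcgr2b (-0.82) and Fcgr3 (-1.04) fell in LepL against IgGL.

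**Figure D5:**
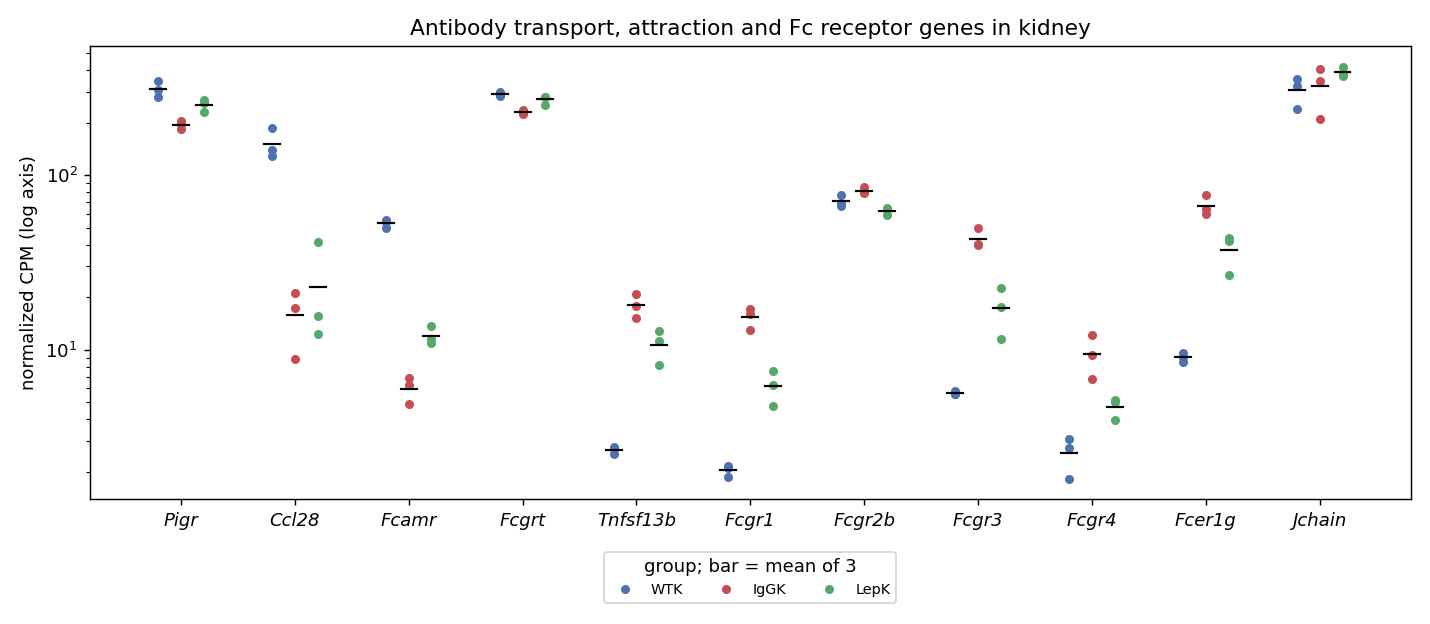
Normalized CPM (log axis) of genes for antibody transport, attraction and binding, and of Jchain, in the 9 kidneys, with a point for each library and a bar for the mean of 3. Ccl28 and Fcamr lie far lower in IgGK and LepK than in WTK, the Fcgr1, Fcgr3, Fcgr4 and Fcer1g points are highest in IgGK, and the Jchain points of the groups overlap.

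The V genes in use were many and mixed. The effective number of Ighv genes, the inverse of the summed squared shares of FPKM, was 31.1 to 41.4 of 76 in kidney and 16.7 to 33.5 in lung. For Igkv it was 28.7 to 42.2 of 73 in kidney and 16.3 to 35.5 in lung. Lung libraries held 592 to 1928 Ighv counts and kidney libraries 1834 to 4262, and the part of depth in these numbers was not tested. In kidney the leading Ighv gene by count was Ighv1-26, Ighv3-6 or Ighv1-81 in every library, and the highest share of Ighv FPKM was 5.68% to 9.30%. The leading Igkv gene by count was Igkv1-117 or Igkv10-96. In lung the highest Ighv share was 8.35% to 15.6%.

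Replicates spread more for these genes than for others. The median biological coefficient of variation in kidney was 0.423 over the 156 genes tested, 0.135 over all genes and 0.302 over other genes at the same level. In lung it was 0.565 over 89 genes, 0.192 over all genes and 0.387 at the same level. Igha was among the steadier of them, at 0.189 in kidney and 0.225 in lung. Counts of 94 of 162 genes were above 0 in all 15 libraries. Just inside the count filter, 8 genes had exactly 3 libraries with 10 counts, with totals of 45 to 161. Just outside it, 5 genes had 2 such libraries, with totals of 54 to 88, among them Ighe, the IgE constant gene, with 67 counts in all.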

How the data were processed

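Poly(A)-selected, non-directional RNA-seq libraries of 9 kidneys and 6 lungs were sequenced by a service provider. The authors deposited raw read counts per Ensembl gene and FPKM values per gene and library; the submitters' processing notes name GRCm39 (mm39) and DESeq2, and the aligner and counter are not given in the sources used here. Columns of the authors' own comparisons (fold changes and p-values) were not used. Groups came from sample titles and treatment labels, and count columns were matched by the short codes in the sample descriptions. Another line of those descriptions names a different group for most samples and was not used. Counts were tested with edgeR 4.0.16 (quasi-likelihood, TMM, filterByExpr with a minimum count of 10 and a total of 15; R 4.3.3), with 1 fit for 9 kidneys (6 residual degrees of freedom), 1 for 6 lungs (4) and 1 for the interaction over 12 libraries (8). Adjusted p-values (Benjamini-Hochberg) cover all genes tested. Calls needed an adjusted p under 0.05 and, except for the interaction, an absolute log2 fold change above 0.5. Normalized CPM use TMM-scaled library sizes, set separately in kidney and lung. SE is the log2 fold change over the square root of its F statistic. The procedure was tested on simulated data.

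The members and gene lists were chosen with earlier results of these data known. Genes named are the constant genes, abundant V genes and, per comparison, the 3 called V genes that rose and fell most with no overlap and a mean of at least 1 normalized CPM. In the comparison of LepK with IgGK, Ighv1-5 and Ighv1-74 were named so that all 6 calls are given; these, Ighv3-4 and Ighv1-81 were chosen after their values were seen. Libraries carry no strand information, and 9 of 162 genes overlap another annotated gene. DESeq2 1.42.0, other scalings and filters, a replicate block and leaving out each library were tried as alternatives.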

Additional observations from a re-analysis of the deposited data

Results flagged for a closer look

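The difference between kidney and lung in the LepAb effect, tested as an interaction, passed for 4 immunoglobulin genes, each with a lower effect in kidney. Ighv1-50 had a difference of -6.14 on the log2 scale, from 23 to 36 counts in every injured kidney against 0, 0 and 1 counts in IgGL and 75, 4 and 21 in LepL, so the fitted value is not a bound. Igkv8-21 had -4.44, with 6, 6 and 1 counts in IgGL and 83, 25 and 5 in LepL. Igkv4-72 had -3.89, with 12, 8 and 21 counts in IgGL and 189, 13 and 255 in LepL. Igkv15-103 had -2.15, with 23, 25 and 26 counts in IgGL and 73, 44 and 126 in LepL. The 2 lung groups did not overlap for Igkv15-103 and Ighv1-50, and overlapped for Igkv8-21, through LepL replicate 3, and for Igkv4-72, through LepL replicate 2. Groups of 3 were not searched for single outlying samples.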

How the results depend on the processing

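Fold changes of single genes were followed for the constant genes, the named V genes and every called gene, 84 in all. Of these 48 were calls, and 37 lost the call in at least 1 alternative. Sign changes occurred in 20 alternatives, none with a call on either side. With library size scaling, Igkc (-0.13) and Iglc2 (-0.061) turned in LepK against IgGK. Leaving out 1 library gave ranges across 0 for Igha (-0.14 to 0.33 in IgGK against WTK, -0.16 to 0.26 in lung), Ighm in LepK against WTK (-0.17 to 0.56), Igkc (-0.20 to 0.30), Iglc1 (-0.052 to 0.58), Iglc2 (-0.30 to 0.39) and Iglc3 (-0.53 to 0.022) in LepK against IgGK, and Ighg1 (-0.70 to 2.19), Ighg2c (-0.20 to 0.95) and Ighg3 (-1.92 to 0.49) in lung. The abundant V genes whose uncalled fold changes are not printed changed sign in 81 of 971 alternatives.

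Counts of called genes were 24 for IgGK against WTK and stayed within 1.5 times under every alternative (16 to 26 when 1 library was left out). LepK against IgGK, with 6, had 12 with library size scaling, 26 without a filter on low counts and 14 with DESeq2 (3 to 16 with 1 library left out). LepK against WTK, with 14, had 27 without the filter (7 to 20). LepL against IgGL, with 0, had 27 without the filter and 7 with DESeq2 (0 to 13). The interaction, with 4, had 7 with library size scaling and 26 without the filter (0 to 14). The cause was not tested. Without the filter, up to 162 genes were tested. Over all genes, calls without the filter were 2481 (LepK against IgGK), 4717 (LepK against WTK), 2688 (lung) and 2659 (interaction). The summed level of LepK against WTK moved from a log2 ratio of 0.34 to 0.60 with library size scaling. When 1 library was left out, summed levels ran from -0.02 to 0.46 (IgGK against WTK), -0.12 to 0.37 (LepK against IgGK), 0.19 to 0.45 (LepK against WTK) and 0.25 to 1.02 (lung).

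Correlations between libraries did not settle whether the replicate numbers pair samples. In kidney 4 of 9 comparisons of a library with another group correlated best at the same number. Correlations at the same number ran from -0.045 to 0.21 there (highest for IgGK with LepK, replicates 1 and 2). In lung it was 1 of 3, with correlations from -0.10 to 0.11. Summed immunoglobulin was lowest in replicate 1 of each kidney group and in replicate 2 of both lung groups. With the replicate block the counts were 23, 11, 19, 0 and 2 in the order above. Lung counts of single V genes were low, and 73 of 162 genes could not be tested there.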

Other observations

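Among genes of early B cell development, Rag1, part of the recombinase that joins V segments, had no counts in the 9 kidneys and 3 IgGL lungs. It stood at 2.25, 0.613 and 0.756 normalized CPM in the 3 LepL lungs (edgeR adjusted p = 0.0337). Rag1 passed the count filter for testing only through LepL, so no conclusion is drawn from that p-value. It was the only call in lung among 5 tested of 8 genes listed for early B cell development. Vpreb3, which B cells also express after that stage, stood at 9.03, 3.17 and 3.79 in IgGL and 12.2, 13.4 and 20.96 in LepL (log2 fold change 1.54, SE 0.40, edgeR adjusted p = 0.0589).

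Cxcl13, the chemokine that draws B cells into follicles, stood at 18.9, 33.6 and 51.1 normalized CPM in IgGL and at 24.0, 8.18 and 12.02 in LepL (log2 fold change -1.23, SE 0.43, edgeR adjusted p = 0.112). Its order of replicates was that of summed immunoglobulin in LepL and not in IgGL. In kidney Cxcl13 averaged 0.417 in WTK and 1.50 in LepK (1.84, SE 0.47, edgeR adjusted p = 0.00807). That comparison holds folic acid and LepAb together. Against IgGK, no tested survival and attraction gene, Cxcl13 among them, was called higher in LepK, and 2 of 11 were called lower. The shares over all genes tested were 4.38% higher and 5.99% lower.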
